A study of Mus musculus with 5 samples.

Results

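The comparison described here sets the liver transcriptome of mice given buthionine sulfoximine (BSO) with rosiglitazone (RGZ) against that of mice given vehicle, gene by gene. Each group was represented by 1 array. A gene entered when its probe was well above background, by the scanner software's call, on at least 1 of these 2 arrays. Of the 36870 gene names printed on the arrays, 21200 did, and 15515 of these are symbols of the RefSeq table. The series holds 5 arrays in all, and the other 3 carry livers given RGZ alone, troglitazone (TGZ) alone and BSO with TGZ.

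All animals were female BALB/c mice aged 6 weeks, and livers were collected 6 hr after intraperitoneal dosing. The first group received 700 mg/kg BSO with 300 mg/kg RGZ, the RGZ group received 300 mg/kg RGZ, and the control group received vehicle. The TGZ group received 300 mg/kg TGZ, and the BSO plus TGZ group received 700 mg/kg BSO with 300 mg/kg TGZ. The series is titled as a model of liver injury from TGZ, which belongs to the same thiazolidinedione class as RGZ. In each group RNA from 6 livers was pooled before labelling, so there was no replicate, no spread between animals could be measured and no difference between groups was tested. No group received BSO alone, and a difference from vehicle can therefore not be divided into a part due to BSO and a part due to RGZ.

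Rosiglitazone activates the nuclear receptor PPAR gamma, which drives fat storage genes in adipose tissue and is scarce in normal liver. BSO blocks glutamate-cysteine ligase, the first enzyme of glutathione synthesis, and so depletes the main thiol that protects hepatocytes from reactive drug products. Loss of thiols is sensed by KEAP1, which then releases the transcription factor NRF2 to turn on antioxidant genes. Stress of the endoplasmic reticulum, amino acid shortage and oxidants are read out by ATF4 and its partners in the integrated stress response, and inflammatory cytokines turn on the acute phase genes of the liver.

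Signals are given as multiples of the array's 75th percentile, which places the arrays on 1 scale. They serve to compare arrays for 1 probe and not probes with each other. Intervals beside folds are 95% intervals of the spot error that the scanner software estimates (a typical SD of 0.205 on the log2 scale, or a factor of 1.32 either way). What they leave out is the variation from animal to animal, between pools and between labellings. The words higher and lower, in counts, mean a difference of 2-fold or more. Where a gene was not well above background on 1 array, the difference is a bound written as "at least". Precision is limited by the number of arrays. On each of the 5 arrays 51.9% to 55.1% of probes were well above background, and no spot was flagged as saturated. The labelled tissue was checked against hepatocyte markers: all 11 were measured and none was past 2-fold, with Alb (albumin) at 1951 with vehicle, 1850 with RGZ and 1878 with BSO plus RGZ.

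With BSO plus RGZ, 646 genes (3.05%) were at least 2-fold higher and 801 genes (3.78%) at least 2-fold lower than with vehicle, of 21200. Past 4-fold there were 82 higher and 73 lower genes, past 8-fold 26 and 12, and past 16-fold 12 and 3. Among genes measured on both arrays, the 3 highest folds belonged to acute phase genes. Among the pathway lists described here, the shares of members past 2-fold were largest for acute phase genes upward and for HSD3B and cholesterol genes downward. Every list count below stands beside the shares of all genes, 3.05% higher and 3.78% lower. Counts of few or no members lie near those shares and are not a result about the list. The split between higher and lower genes moved with the scaling. With arrays scaled to their median there were 844 higher and 621 lower genes, and with scaling to the spike-in RNA 841 and 622. Higher genes were 44.6% of those past 2-fold in the main scaling, 57.6% with the median and 57.5% with the spike-in RNA. The median log2 difference of all genes was -0.05 in the main scaling and 0.06 in those alternatives.

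RGZ alone was compared with the same vehicle array, so the values stand side by side and are not independent of each other. RGZ alone gave 352 higher genes (1.65%) and 354 lower genes (1.66%) of 21269. Of the genes called higher with BSO plus RGZ, 522 were measured on both arrays, and their median log2 difference from vehicle was 1.27. The median of these genes with RGZ alone was 0.93, and 220 of 519 were past 2-fold there. For the 627 measured lower genes the medians were -1.26 with the combination and -0.84 with RGZ alone, where 200 of 623 were past 2-fold. Both sets were chosen by their values with BSO plus RGZ, and that choice by itself favours smaller medians with RGZ alone. These medians therefore do not measure a difference between the RGZ groups. Set directly against RGZ, without the vehicle array, BSO plus RGZ gave 109 higher genes (0.513%) and 152 lower genes (0.716%) of 21231.

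Acute phase genes, which hepatocytes turn on in response to inflammatory cytokines, were the most altered group in the upward direction. Past 2-fold there were 18 higher and 0 lower members among 27 with a value, beside 3.05% and 3.78% of all genes. The median log2 difference of the list was 1.46. Serum amyloid A3 (Saa3), an amyloid protein made by macrophages and by stressed hepatocytes, had signals of 2.64 with vehicle, 107 with RGZ and 615 with BSO plus RGZ. Saa3 thus stood highest with the combination, 233-fold above vehicle (177 to 307) and 5.74-fold above RGZ alone (4.35 to 7.58).

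Saa1 and Saa2, the circulating hepatocyte forms, did not share that step between the RGZ groups. Saa1 was at 17.5 with vehicle, 1486 with RGZ and 1692 with BSO plus RGZ, a 96.8-fold difference from vehicle (73.4 to 128). Saa2 was at 27.3, 2026 and 2244, an 82.1-fold difference (62.2 to 108). Against RGZ alone the folds were 1.14 for Saa1 (0.863 to 1.5) and 1.11 for Saa2 (0.839 to 1.46), so for both the spot error spans no difference. The Saa1 and Saa2 probes are identical at 20 of 58 aligned bases. That does not show whether each binds the other's RNA, which was not tested. The signals of Saa1, Saa2 and Fgb in both RGZ groups lay above the brightest spike-in RNA, which was at 1238 with RGZ and 1240 with BSO plus RGZ. Whether signal stayed proportional to RNA above that level was not tested. Saa4, which is made constitutively, was 2.74-fold higher (2.08 to 3.62). The 4 serum amyloid probes lie close together on chromosome 7, between 53967559 for Saa3 and 54009594 for Saa2 (mouse build mm9).

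The list also held genes of iron and heme handling. Lcn2, a lipocalin that withholds iron from bacteria, had signals of 9.63 with vehicle, 274 with RGZ and 571 with BSO plus RGZ. The combination was 59.2-fold above vehicle (44.9 to 78.1) and 2.09-fold above RGZ alone (1.58 to 2.75). The metalloreductase gene Steap4 was at 1.24, 13.4 and 20.1 in the same order, 16.2-fold above vehicle. Hamp, which encodes the iron hormone hepcidin, was at 58.6, 354 and 320 and so stood slightly lower with the combination than with RGZ alone. Its near copy Hamp2 was at 70.9, 87.2 and 70.7. Hpx, the heme scavenger hemopexin, was 2.16-fold higher, whereas Hp, the hemoglobin scavenger haptoglobin, was 1.36-fold higher and below the threshold.

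The orosomucoids, plasma carriers of basic drugs, were all past 2-fold. Orm1 was 5.50-fold, Orm2 8.24-fold and Orm3 19.5-fold higher (14.8 to 25.7). The Orm1 and Orm3 probes are identical at 46 of 52 aligned bases, and whether each binds the other's RNA was not tested. Serpina3n, a protease inhibitor, was at 23.6 with vehicle, 113 with RGZ and 204 with BSO plus RGZ. Among the fibrinogen chains, Fga was 3.87-fold and Fgb 2.13-fold higher and Fgg was 1.64-fold higher. The pentraxins Apcs and Crp, which bind microbial surfaces, were 3.43-fold and 2.06-fold higher. Cd14, the co-receptor for lipopolysaccharide, was at 0.850, 2.02 and 5.84, which is 6.87-fold above vehicle (5.20 to 9.08) and 2.89-fold above RGZ alone (2.19 to 3.81).

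The promoters of acute phase genes were searched for the C/EBP site TTGNNCAA on both strands, where N is any base. In RefSeq's windows for GRCm38.p6, from 250 bases before to 50 after each start, 9 of 23 promoters of list members held a match (39.1%), against 6.40% of all 32851 promoters. The NF-kappaB site GGGNNTTCC was found in 4 of 23 (17.4%) and in 5.82% of all. Of the 15 members past 2-fold with a promoter window, 8 had the C/EBP match. Saa1, Saa2, Orm2 and Lcn2 are shown because they include the largest differences, with the matched letters in capitals. The Saa1 and Saa2 stretches are from a pair of neighbouring genes transcribed in opposite directions, and they carry the match at nearly the same distance from the start (182 and 183 bases before it).
Saa1, chr7:46743109-46743208, minus strand: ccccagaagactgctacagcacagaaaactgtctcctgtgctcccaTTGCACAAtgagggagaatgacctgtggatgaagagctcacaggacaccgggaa
Saa2, chr7:46751604-46751703, plus strand: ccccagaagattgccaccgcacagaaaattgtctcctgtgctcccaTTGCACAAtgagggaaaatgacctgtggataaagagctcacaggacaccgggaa
Orm2, chr4:63362283-63362382, plus strand: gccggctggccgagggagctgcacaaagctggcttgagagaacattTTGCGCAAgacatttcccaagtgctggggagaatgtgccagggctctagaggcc
Lcn2, chr2:32387902-32387989, minus strand: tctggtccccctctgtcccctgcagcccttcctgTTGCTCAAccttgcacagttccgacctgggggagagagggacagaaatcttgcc
A match is a description of these letters and was not tested as a site.

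Genes of cytokine signalling were higher in smaller number. Of 32 genes of interleukin 1, interleukin 6 and NF-kappaB signalling, 8 were higher and 1 lower (median 0.35). Socs3, the feedback inhibitor of STAT3, was at 1.97 with vehicle, 6.18 with RGZ and 9.84 with BSO plus RGZ, 4.99-fold above vehicle (3.78 to 6.58). The interleukin 1 receptor antagonist gene Il1rn was 3.20-fold and the TNF receptor gene Tnfrsf1a 2.46-fold higher. Il6 itself was not well above background with vehicle and was at least 2.48-fold higher, but normexp background correction gave 0.36 (log2). The interleukin 1 receptor gene Il1r2, also past 2-fold upward, was at 0.66 (log2) with normexp. The receptor gene Lifr was the member past 2-fold in the other direction, at 31.1, 12.1 and 8.16. Of 19 chemokine and chemokine receptor genes, 5 were higher and 1 lower. Cxcl14 and Cxcr2, both past 2-fold upward, were at 0.41 and 0.36 (log2) with normexp, under 2-fold. Ccr8 was at 0.106, 1.88 and 3.14, or 29.7-fold above vehicle (20.9 to 42.1), and the B cell attractant Cxcl13 was 9.39-fold higher (6.71 to 13.1).

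Markers of other cells also differed beside these genes. Of 14 neutrophil markers with a value, 4 were higher and none lower (median 0.54), and the summed signal of the list was 115 with vehicle, 124 with RGZ and 131 with BSO plus RGZ, most of it from Csf3r at 100.5, 95.4 and 93.8. S100a8 and S100a9, the calprotectin subunits, were 4.46-fold and 3.81-fold higher, and the other higher members, Retnlg and Cxcr2, were at 0.75 and 0.36 (log2) with normexp, under 2-fold. Ly6g was at 1.11 with vehicle and 1.06 with BSO plus RGZ, Camp at 0.532 and 0.538, and Mmp9 was not well above background on either array. Of 13 Kupffer cell and macrophage markers 1 was higher and 1 lower, namely Marco at 3.59-fold higher and Ly6c2 at 3.49-fold lower, while Clec4f and Adgre1 were within 1.26-fold of vehicle. In RNA from whole liver, more cells of a type and more RNA per cell cannot be told apart. The part of other cells in the acute phase and cytokine values was not tested.

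Negative acute phase genes, secreted proteins that the liver makes less of during inflammation, had 1 lower member and 0 higher among 9 (median -0.16, beside -0.05 for all genes). That member was Serpina6, the carrier of glucocorticoids, at 187 with vehicle, 156 with RGZ and 89.3 with BSO plus RGZ, and its difference was -0.96 (log2) with median scaling. Among 22 genes of gluconeogenesis, insulin and glucocorticoid action 2 were lower and 0 higher. Tsc22d3, which glucocorticoids turn on, was at 52.0, 21.8 and 13.3, or 3.90-fold below vehicle. Fkbp5 and Per1, which glucocorticoids also turn on, were 1.71-fold and 1.56-fold above vehicle. The other lower member, Igfbp1, was at 30.0, 9.13 and 8.08. None of the 10 urea cycle genes was past 2-fold (median -0.45).

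NRF2 targets were higher with the combination at several members that RGZ alone left close to vehicle. Past 2-fold there were 5 higher and 0 lower genes of 28 with a value, and the list's median was 0.33. With RGZ alone 0 of them were past 2-fold, beside 1.65% and 1.66% of all genes, which for a list of this size is close to 0 genes, and the median was -0.05. Srxn1, sulfiredoxin, which reactivates peroxiredoxins, had signals of 23.6 with vehicle, 22.8 with RGZ and 103 with BSO plus RGZ. It was 4.35-fold above vehicle (3.30 to 5.74) and 4.51-fold above RGZ alone (3.42 to 5.95), so the combination stands apart from a pair of nearly equal values.

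The same order was seen for Gstp1, a glutathione transferase, at 26.5 with vehicle, 26.6 with RGZ and 60.1 with BSO plus RGZ. Cbr3, a carbonyl reductase, was at 0.505, 0.554 and 1.53, which is 3.03-fold above vehicle (2.29 to 4.02). Txnrd1, thioredoxin reductase 1, was at 30.6, 39.3 and 82.1, or 2.68-fold above vehicle (2.03 to 3.54). Hmox1, which breaks down heme, differed from these in that RGZ alone already gave 7.49 against 4.58 with vehicle, with 9.79 for the combination. Ugdh, which supplies glucuronic acid for conjugation, was 1.89-fold and the quinone reductase gene Nqo1 1.54-fold higher, both short of the threshold.

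The other members differed less. The NADPH-supplying enzymes had a median of 0.36 with no member past 2-fold, and Pgd was highest among them at 1.64-fold. The regulators themselves were near vehicle, with Nfe2l2 (NRF2) at 1.29-fold, Keap1 at 1.31-fold and Bach1 1.11-fold lower. Ferritin genes Ftl1 and Fth1 were within 1.16-fold of vehicle. Osgin1, an oxidative stress-induced growth inhibitor, was 1.43-fold lower. Slc7a11, the cystine carrier, was not well above background on either array.

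The antioxidant response element, searched as TGACNNNGC on both strands, was found in 10 of 36 promoters of NRF2 targets (27.8%) and in 12.39% of all promoters. Of the 4 members past 2-fold with a promoter window, 2 had a match, namely Txnrd1 and Srxn1. In Srxn1 it lies after the start site and is not printed. Txnrd1 and Ugdh are shown as members with a match before the start, in capitals and on opposite strands.
Txnrd1, chr10:82859068-82859168, plus strand: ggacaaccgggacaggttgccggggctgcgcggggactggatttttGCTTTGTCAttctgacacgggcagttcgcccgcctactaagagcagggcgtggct
Ugdh, chr5:65435920-65436020, minus strand: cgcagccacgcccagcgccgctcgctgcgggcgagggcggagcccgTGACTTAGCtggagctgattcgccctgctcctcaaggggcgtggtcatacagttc

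Enzymes of glutathione metabolism, the pathway that BSO blocks, were mostly within 2-fold. Of 11 genes with a value, 1 was higher and none lower (median 0.23, against -0.24 with RGZ alone). Gclc, the catalytic subunit that BSO inhibits, was at 51.3 with vehicle, 32.1 with RGZ and 65.3 with BSO plus RGZ. The combination differed from vehicle by 1.27-fold (0.965 to 1.68) and from RGZ alone by 2.04-fold (1.54 to 2.69), RGZ alone being the lowest of the 3 values. The modifier subunit Gclm was 1.38-fold higher and the synthetase Gss was 1.05-fold lower. Chac1, which degrades glutathione, was at 1.58, 8.91 and 9.08, so both RGZ groups stood more than 5-fold above vehicle and close to each other. Its relative Chac2 was 1.95-fold lower. Glutathione reductase (Gsr) was 1.58-fold higher (1.20 to 2.09).

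Sulfur amino acid enzymes, which feed cysteine into that pathway, had 3 of 19 members lower and none higher. Cth, the transsulfuration enzyme that releases cysteine, was at 54.1 with vehicle, 27.6 with RGZ and 18.1 with BSO plus RGZ, 3.0-fold below vehicle (2.27 to 3.95). Ethe1 was 2.09-fold and Fmo1 2.05-fold lower, and with median scaling they were at -0.96 and -0.94 (log2), under 2-fold. None of the 14 glutathione transferases outside the NRF2 list was past 2-fold (median -0.41). Of 25 thioredoxin, peroxiredoxin and superoxide genes 1 was past 2-fold, the mitochondrial superoxide dismutase gene Sod2, at 13.2, 20 and 35.1.

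In the integrated stress response list, 8 of 24 members were higher and 1 was lower (median 0.58, and 0.44 with RGZ alone). Fgf21, a secreted hormone of fasting and stress, had signals of 0.831 with vehicle, 5.68 with RGZ and 15 with BSO plus RGZ. It was 18-fold above vehicle (13.6 to 23.8) and 2.63-fold above RGZ alone (2.0 to 3.48). Asns, asparagine synthetase, was at 0.162, 0.271 and 0.674, which is 4.17-fold above vehicle and 2.49-fold above RGZ alone (1.85 to 3.34). With normexp the Asns difference from vehicle was 0.98 (log2), just under 2-fold.

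Other members were less than 2-fold apart between the RGZ groups. Ddit3, the factor CHOP, was at 0.480 with vehicle, 1.05 with RGZ and 1.54 with BSO plus RGZ. Gdf15, a stress hormone, was at 2.82, 6.07 and 7.74. Pycr1, of proline synthesis, was at 0.110, 0.415 and 0.376, a 3.43-fold difference from vehicle that normexp put at 0.66 (log2). Eif2ak3, the kinase PERK, was 2.42-fold higher, but 0.90 (log2), under 2-fold, with the mean over its probes. Atf4 itself was 1.65-fold higher. Among feedback genes of the same response, Trib3, Sesn2 and Ddit4 were within 1.08-fold of vehicle. The other feedback members were higher, Ppp1r15a at 1.84-fold (1.39 to 2.43), Nupr1 at 1.47-fold and Chac1 at 5.75-fold. Another probe of Nupr1 pointed the other way. Vldlr, a lipoprotein receptor, was the lower member, at 4.44, 2.24 and 1.48. None of the 20 aminoacyl tRNA synthetases was past 2-fold (median 0.38, beside -0.05 for all genes).

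The C/EBP-ATF response element was searched as TGATGNAA on both strands. It was found in 7 of 29 promoters of this list (24.1%) and in 3.97% of all promoters, and 5 of the 9 members past 2-fold with a window had it. Fgf21, Chac1 and Asns are shown as members past 2-fold that differ in their values: Fgf21 and Asns stood apart between the RGZ groups, and Chac1 did not. The match is in capitals.
Fgf21, chr7:45615576-45615675, minus strand: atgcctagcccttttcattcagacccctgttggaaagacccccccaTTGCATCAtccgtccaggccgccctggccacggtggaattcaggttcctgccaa
Chac1, chr2:119351003-119351102, plus strand: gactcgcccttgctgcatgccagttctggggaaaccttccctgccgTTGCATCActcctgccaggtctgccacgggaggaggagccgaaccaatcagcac
Asns, chr6:7693210-7693278, minus strand: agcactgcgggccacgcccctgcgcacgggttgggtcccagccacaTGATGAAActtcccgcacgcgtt

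Of 31 endoplasmic reticulum genes, 4 were higher and none was lower (median 0.35, and 0.07 with RGZ alone). Dnajb9, a co-chaperone of BiP, had signals of 4.32 with vehicle, 15.4 with RGZ and 24.5 with BSO plus RGZ, 5.66-fold above vehicle (4.29 to 7.47). Syvn1, the ubiquitin ligase that clears misfolded proteins, was at 77.0, 138 and 229, or 2.97-fold above vehicle. Creld2 was 2.22-fold and the secreted chaperone gene Manf 2.06-fold higher. Hspa5, which encodes BiP, was 1.49-fold higher and Hsp90b1 1.08-fold lower. The spliced factor gene Xbp1 was 1.27-fold higher, and splicing is not measured by these probes.

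Derl3, a channel component of endoplasmic reticulum degradation, followed another order. It was at 16.6 with vehicle, 4.77 with RGZ and 17.4 with BSO plus RGZ. The combination was thus level with vehicle (1.04-fold, 0.791 to 1.38) and 3.64-fold above RGZ alone (2.76 to 4.80). Sdf2l1, a chaperone cofactor, was at 12.5, 11.4 and 22.8 which puts the combination 1.82-fold above vehicle. Bhlha15, which encodes the secretory-cell factor MIST1, was not well above background with vehicle, was at 1.48 with RGZ and at 4.09 with BSO plus RGZ, at least 73.1-fold above vehicle. The unfolded protein response element TGACGTGG was found in 1 of 28 promoters of the list (3.60%), that of Sec24d, and in 0.68% of all promoters.

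Cytosolic heat shock genes were past 2-fold at 3 of 18 members of the heat shock list. Hspa1b was at 0.403 with vehicle, 1.11 with RGZ and 2.05 with BSO plus RGZ, and the co-chaperone gene Bag3 was 2.25-fold higher. Hspa1a was at least 2.38-fold higher, but normexp gave 0.25 (log2).

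**Figure D1:**
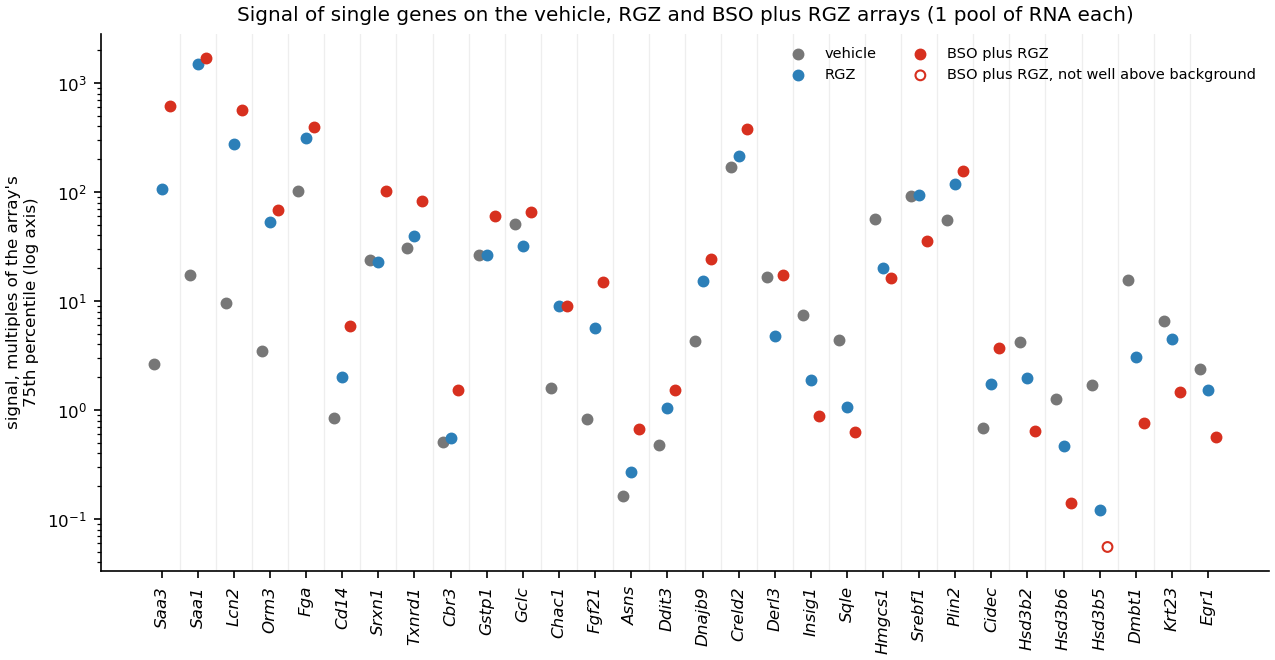
Signal of 30 genes on the vehicle, RGZ and BSO plus RGZ arrays, in multiples of the array's 75th percentile on a log axis, with 1 point per array and an open circle where the probe was not well above background. Srxn1 and Gstp1 are level in vehicle and RGZ and higher with BSO plus RGZ, Derl3 is low with RGZ alone at 4.77, and Hsd3b5 is open at 0.0554 with BSO plus RGZ.

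Cholesterol synthesis and uptake genes, which SREBP2 drives when sterols are short, were lower across the pathway. Past 2-fold there were 16 lower and 0 higher members among 27 with a value, with a median of -1.25. Insig1, a sterol sensor and SREBP target, had signals of 7.50 with vehicle, 1.88 with RGZ and 0.883 with BSO plus RGZ. It was 8.49-fold below vehicle (6.42 to 11.2) and 2.13-fold below RGZ alone (1.61 to 2.82), the largest difference of the list. Srebf2 itself was 1.16-fold lower and Scap, its escort, 1.52-fold lower.

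Along the mevalonate arm, Hmgcs1 was at 57.1, 20 and 16.4 and Idi1 at 14.3, 4.47 and 2.79, in the order vehicle, RGZ and BSO plus RGZ. Mvk, mevalonate kinase, was 3.65-fold lower. In the squalene arm, Sqle was at 4.41, 1.06 and 0.633, which is 6.98-fold below vehicle (5.27 to 9.23). Fdft1 was 3.57-fold and Fdps 3.31-fold lower, whereas Ggps1, at the branch to geranylgeranyl lipids, was 1.83-fold higher, although another probe of that gene pointed the other way. Among sterol enzymes, Msmo1 was 5.31-fold, Cyp51 3.40-fold and Sc5d 3.25-fold lower, and Ebp was 1.30-fold lower.

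With RGZ alone the list had a median of -1.10 and 15 members past 2-fold lower, and against RGZ alone 1 member was past 2-fold, Insig1. The sterol regulatory element TCACNCCAC was found in 1 of 27 member promoters (3.70%) and in 1.24% of all promoters. It lies in the promoter of Hmgcs1, shown with the match in capitals because it is the list's single match; the gene makes HMG-CoA.
Hmgcs1, chr13:119690168-119690268, plus strand: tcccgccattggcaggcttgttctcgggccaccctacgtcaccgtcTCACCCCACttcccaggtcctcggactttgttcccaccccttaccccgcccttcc

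Of 24 genes of lipogenesis and triglyceride synthesis, 7 were lower and 1 higher (median -0.42). The lower ones were Srebf1 and 6 of the 14 fatty acid enzymes and their partners. Srebf1, the lipogenic transcription factor, was at 91.1 with vehicle, 93.3 with RGZ and 35.7 with BSO plus RGZ. The combination was 2.55-fold below vehicle (1.93 to 3.36), while RGZ alone was level with vehicle. Thrsp was 3.69-fold, Acss2 3.34-fold, Acly 2.36-fold and Fasn 2.24-fold lower. Scd1, the stearoyl desaturase, was at 26.1, 59.0 and 66.1 and so was 2.53-fold higher. None of the 9 liver X receptor genes and targets was past 2-fold.

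Genes tied to PPAR gamma and lipid droplets included members past 2-fold both ways, with 4 of 23 higher and 3 lower (median 0.18). Cidec, which fuses lipid droplets, had signals of 0.688 with vehicle, 1.75 with RGZ and 3.69 with BSO plus RGZ, 5.36-fold above vehicle (4.05 to 7.10) and 2.11-fold above RGZ alone (1.60 to 2.79). G0s2, an inhibitor of lipolysis, was at 5.54, 29.4 and 29.9. The droplet coat genes Plin4 and Plin2 were 3.13-fold and 2.79-fold higher. Pparg was 1.54-fold higher (1.17 to 2.04). Among the 7 adipocyte-type targets with a value 1 was past 2-fold, Cfd, while Fabp4 was 1.62-fold higher, Cd36 1.04-fold lower and the glycerol channel gene Aqp7 1.56-fold lower.

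The lower members were Cfd, Fitm1 and Plin1. Cfd, adipsin, was at 0.459 with vehicle and not well above background in either RGZ group, at least 8.66-fold below vehicle with the combination. Plin1 was 2.17-fold lower, and -0.36 (log2) with normexp. Fitm1 was at least 2.74-fold lower, and -0.34 (log2) with normexp. Cfd and Plin1 also belong to the list of pancreas and adipose markers, of which 3 of 5 were lower. The summed signal of that list was 28.7 with vehicle, 11.7 with RGZ and 9.08 with BSO plus RGZ, most of it from Cela1 at 25.9, 9.91 and 7.07. Adipoq, Cpa1, Prss2 and Pnlip were not well above background with vehicle or with BSO plus RGZ. The part of such tissue in the Cfd and Plin1 values was not tested. In the list of PPAR alpha and fatty acid oxidation, 2 of 36 members were past 2-fold, Fgf21 and the peroxisomal gene Pex11a (2.18-fold).

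HSD3B genes encode 3-beta-hydroxysteroid dehydrogenases, of which several are made in rodent liver. Of 6 members with a value, 5 were lower and none higher, with a median of -2.88 that counts bounds as they are. Hsd3b2 had signals of 4.23 with vehicle, 1.97 with RGZ and 0.644 with BSO plus RGZ, 6.57-fold below vehicle (4.97 to 8.69) and 3.06-fold below RGZ alone (2.32 to 4.05). Hsd3b3 was at 3.27, 1.4 and 0.523. Hsd3b6 was at 1.27, 0.466 and 0.140, or 9.07-fold below vehicle (6.55 to 12.6). In all of these the combination was the lowest of the 3 values.

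Hsd3b5, a male-biased member, was at 1.68 with vehicle, 0.120 with RGZ and 0.0554 with BSO plus RGZ, where it was not well above background, at least 30.4-fold below vehicle. Hsd3b1 was at least 8.28-fold lower, but -1.0 (log2) with normexp, at the 2-fold limit and not past it. Probes of these 5 genes lie together on chromosome 3 between 98422576 (Hsd3b5) and 98656389 (Hsd3b1) in mm9. Hsd3b7, the bile acid enzyme of the family, lies on chromosome 7 and was 1.39-fold lower, at 156 with vehicle. Members of the family are close copies, and whether a probe binds RNA of its relatives was not tested.

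**Figure D2:**
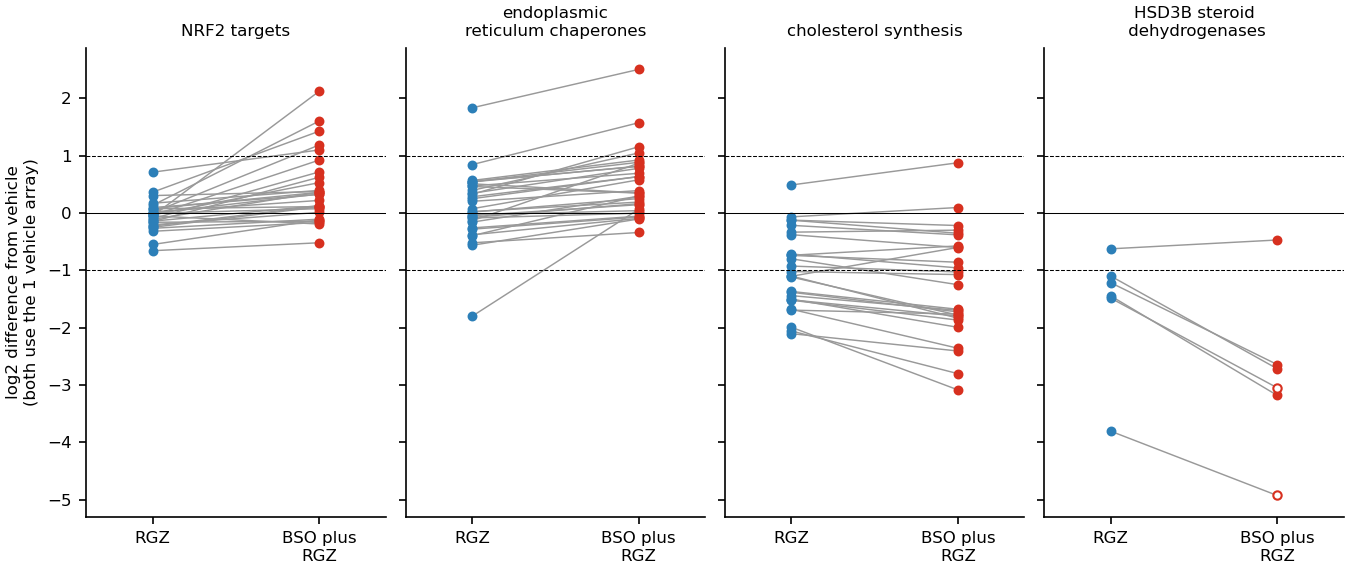
Log2 difference from vehicle for the members of 4 gene lists with RGZ (blue) and with BSO plus RGZ (red), 1 line per gene, open circles for bounds and dashed lines at 2-fold. The vehicle array is common to both, no NRF2 target is past 2-fold with RGZ, and 5 HSD3B members lie between -2.64 and -4.93 with BSO plus RGZ.

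Sex-biased genes and growth hormone targets were lower at 9 of 38 members and higher at 1 (median -0.27). The 5 lower female-biased members included A1bg at 9.56-fold lower (7.01 to 13), at 1.85 with vehicle, 0.195 with RGZ and 0.193 with BSO plus RGZ. Slco1a1, a male-biased anion carrier, was 5.61-fold lower (4.23 to 7.42). Igfals, which keeps insulin-like growth factor in the circulation, was at 6.74, 3.48 and 1.64. Of 37 cytochrome P450 genes and their factors, 5 were lower and none higher (median -0.37), among them Cyp2g1 at 5.19-fold and Cyp2b13 at 3.44-fold lower. Of 22 bile acid genes 3 were lower, including Nr0b2 at 2.74-fold.

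Interferon-stimulated genes were lower at 7 of 25 members and higher at 1 (median -0.55, and -0.23 with RGZ alone). Of the lower members Mx1, a bound, Rsad2 and Isg15 were at -0.37, -0.79 and -0.99 (log2) with normexp, under 2-fold. Usp18, which limits interferon signalling, was at 3.56 with vehicle, 1.49 with RGZ and 0.933 with BSO plus RGZ. Ifit1 was 3.37-fold (2.52 to 4.50) and Oasl1 2.64-fold lower. Gbp2, a guanylate-binding protein, was the exception at 0.649, 2.16 and 3.14. Lymphocyte markers had 1 of 8 members lower (median -0.42), with a summed signal of 48.4 with vehicle and 26.6 with BSO plus RGZ. Most of it came from Cd4, at 38.6 and 19.3, and the other 7 members summed to 9.85 and 7.28. Their part was not tested.

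Growth arrest and nucleolar genes were higher at several members. The p53 and DNA damage list had 7 higher members and 1 lower among 24 (median 0.55). Of the higher members Tnfrsf10b and Btg2 were at 0.51 and 0.86 (log2) with normexp, under 2-fold. Aen was at 0.68 (log2) with the mean over its probes. Cdkn1a, which encodes p21 and halts the cell cycle, was at 0.530 with vehicle, 1.75 with RGZ and 3.97 with BSO plus RGZ, 7.49-fold above vehicle (5.65 to 9.93). Gadd45g was 2.59-fold higher, and Bbc3, a promoter of apoptosis, was 2.32-fold lower. Of 25 ribosome biogenesis genes 5 were higher and none lower (median 0.60), and Gnl3 and Nop58 were 2.71-fold and 2.52-fold higher. Nop14, also counted as higher, was at 0.66 (log2) with normexp, under 2-fold. Among 26 immediate early genes 4 were higher and 2 lower. With normexp the higher members Fosl2, Btg2 and Ier3 were at 0.82, 0.86 and 0.65 (log2), under 2-fold. The lower member Nr4a2 was at -0.29 (log2) there. Jun was at 4.14, 10 and 15.4, whereas Egr1 was at 2.38, 1.52 and 0.566 and so 4.2-fold below vehicle (3.17 to 5.56). Cep55, of cell abscission, was 28.1-fold higher (18.1 to 43.7) in a cell cycle list with 1 of 29 members higher and 3 lower. Mcm5 and Birc5, both past 2-fold downward, were at -0.49 and -0.62 (log2) with normexp, under 2-fold.

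Metal-binding and heme genes were higher at 6 of 26 members and lower at 1. Mt2, a metallothionein, was at 173 with vehicle, 784 with RGZ and 836 with BSO plus RGZ. Mt1 was 4.2-fold higher by its brightest probe, but another probe of it pointed the other way and the mean over its probes was -0.22 (log2). Alas1, the first enzyme of heme synthesis, was 2.28-fold and the zinc carrier gene Slc39a14 2.41-fold higher, each at a similar level in the RGZ groups.

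**Figure D3:**
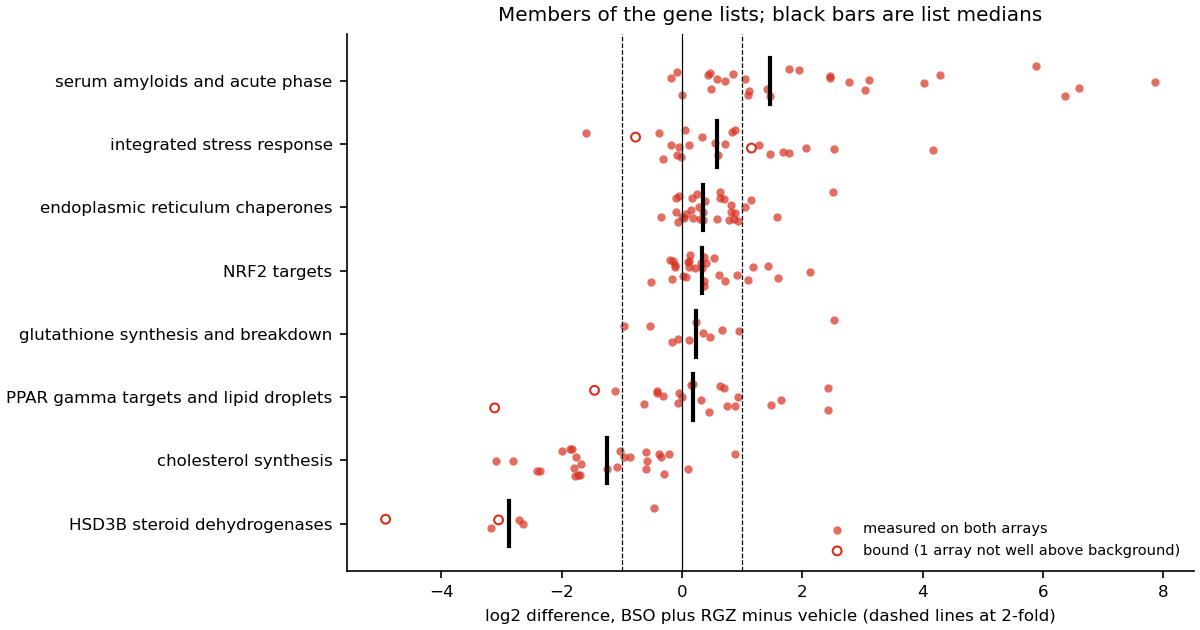
Log2 difference between BSO plus RGZ and vehicle for each member of 8 gene lists, with black bars at the list medians, dashed lines at 2-fold and open circles for bounds. Medians run from 1.46 for acute phase genes to -2.88 for HSD3B genes, and 18 of 27 acute phase genes and 16 of 27 cholesterol genes lie beyond the dashed lines.

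Outside the gene groups above, large differences upward included Slc13a5, the citrate carrier, at 0.526 with vehicle, 3.68 with RGZ and 7.50 with BSO plus RGZ, 14.3-fold above vehicle (10.8 to 18.9). Cpne8, a calcium-dependent lipid-binding protein, was 10.1-fold higher (7.32 to 14) and Cgref1 9.10-fold higher (6.86 to 12.1). Krtap11-1, a hair keratin-associated gene, was at 2.80, 12.8 and 25.7. Crybb3, a lens crystallin, was not well above background with vehicle and was at least 11.7-fold higher.

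Downward, Dmbt1, a secreted scavenger receptor protein of ducts and mucosa, was farthest from vehicle among measured genes. It was at 15.7 with vehicle, 3.06 with RGZ and 0.758 with BSO plus RGZ, 20.8-fold below vehicle (15.7 to 27.5) and 4.04-fold below RGZ alone (3.05 to 5.33). Krt19, another duct gene, was 5.55-fold lower, while the duct genes Sox9 and Spp1 were within 1.38-fold of vehicle. The summed signal of the duct list was 342 with vehicle and 362 with BSO plus RGZ, but Krt8 and Krt18, keratins that hepatocytes also make, gave 319 and 356 of it. The other 6 members summed to 22.5 with vehicle, 9.02 with RGZ and 5.70 with BSO plus RGZ, and Dmbt1 made up most of the first of these sums. Slc26a4, an anion exchanger, was 11.4-fold lower (7.51 to 17.2). Rgs16, which shuts off G protein signals, was at 41.5, 10.6 and 4.71, or 8.81-fold below vehicle (6.67 to 11.6). Tk1, thymidine kinase of dividing cells, was 7.63-fold lower, and the orphan nuclear receptor gene Esrrg was at least 9.49-fold lower.

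Several genes were under 2-fold from vehicle with RGZ alone and past 2-fold with the combination. Pak3, a kinase of the cytoskeleton, was at 0.0748 with vehicle, 0.0698 with RGZ and 0.261 with BSO plus RGZ, and Lrrc14b was at 0.277, 0.286 and 0.937. Samd4 and Ydjc were 2.71-fold and 2.56-fold above vehicle. These 4 genes were dim, and with normexp the differences of Pak3, Samd4 and Ydjc from vehicle were 0.53, 0.87 and 0.27 (log2), all under 2-fold. Downward, the keratin gene Krt23 was at 6.57, 4.50 and 1.47. Dio3os, a non-coding RNA beside a thyroid hormone deiodinase gene, was at 0.565, 0.397 and 0.120. Both already stood below vehicle with RGZ alone.

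Collagen-producing stellate cells and fibroblasts were represented by 13 markers, of which 4 were lower and none higher (median -0.51). Col3a1 was at 2.58 with vehicle, 1.24 with RGZ and 1.03 with BSO plus RGZ. The other lower members, Lum, Col1a1 and Cnn1, were at -0.99, -0.82 and -0.97 (log2) with normexp, under 2-fold. Cnn1 was a bound, at least 6.15-fold lower, with a spot error interval that spans no difference (0.847 to 44.6). Acta2, Tagln and Pdgfra were within 1.09-fold of vehicle. Of 11 sinusoidal endothelial markers 1 was past 2-fold, the hyaluronan receptor gene Lyve1, at 3.29-fold higher. None of the 6 erythroid markers with a value was past 2-fold (median -0.63). None of the 26 respiratory chain genes, 31 proteasome genes or 18 circadian clock genes was past 2-fold. Of all genes 3.05% were higher and 3.78% lower, so lists of this size would hold few such members in any case.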

How the data were processed

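Each group was 1 pool of RNA on 1 single-colour Agilent array, all 5 on 1 slide. Per the file headers, Agilent Feature Extraction 12.0.3.1 subtracted the background and a spatial trend from each spot; the resulting processed intensity in the deposited scanner files has no scaling from array to array. The deposited value table holds log2 values that match log2 of the processed signal, shifted by 1 constant for each array, within 0.01 for at least 99.8% of probes. Its scale is therefore known, its column medians ran from 3.92 to 4.08 (vehicle 4.03, TGZ 4.02, BSO plus TGZ 4.08, RGZ 4.01, BSO plus RGZ 3.92), and the sources used here do not name the tool behind that constant.

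Feature outlier spots were left out, spots of a probe were averaged, and the array's 75th percentile was subtracted on the log2 scale. For each gene the probe brightest on average across the 5 arrays was kept. A probe was above background when at least 0.5 of its spots were called so. For a bound, the dim side was the higher of its own signal and the array's lowest well-above-background signal. Spot errors of the scanner software were combined for the difference, and differences between groups were not tested because each group has 1 array. The script was tested on simulated data. Probe coordinates are mm9, per the file headers, and promoters are RefSeq's for GRCm38.p6. The 2 builds were not mixed.

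The 46 gene lists (958 genes, 954 of 965 listed names found directly and 7 more through a RefSeq synonym) and the members described were chosen with earlier results of these data known. Genes were named by rule: the 15 largest measured differences each way with a RefSeq symbol and all other measured probes in the same direction, the 5 largest bounds each way, in each list the 8 members farthest from 0 and its regulators, list members past 2-fold against RGZ, the 10 largest differences each way against RGZ among genes past 2-fold against vehicle, and cell type markers. The text describes part of these. Members named for being close to vehicle were chosen after their values were seen. The results of some genes are not reported here. Analyses used Python 3.11.15, pandas 2.3.3, numpy 2.4.6, matplotlib 3.10.9, R 4.3.3 and limma 3.58.1, the last for normexp (offset 50). The 10 alternative settings are given in the closing section.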

Additional observations from a re-analysis of the deposited data

Results flagged for a closer look

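In 5 list members measured on all the arrays compared, the difference from vehicle was past 2-fold in opposite directions with BSO plus RGZ and with BSO plus TGZ, which share the vehicle array, and the difference between the compounds was not tested. Egr1 was at -2.07 with BSO plus RGZ and 1.57 with BSO plus TGZ on the log2 scale, with signals of 2.38 with vehicle, 0.566 and 7.05. Igfbp1, whose product binds insulin-like growth factors, stood at -1.89 and 5.47, with signals of 30.0, 8.08 and 1329. Rsad2, an antiviral enzyme, was at -1.41 and 1.79. Ndrg1 was at -1.26 and 1.44, and the nuclear receptor gene Nr4a2 at -1.21 and 1.20. Cfd was past 2-fold both ways too, as a bound (at least 8.66-fold lower) with BSO plus RGZ and measured at 2.35-fold higher with BSO plus TGZ. Nr4a2 and Rsad2 with BSO plus RGZ were at -0.29 and -0.79 under normexp background correction, less than 2-fold.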

How the results depend on the processing

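Counts moved most with background and the filter on dim probes. Normexp background correction gave 280 higher and 248 lower genes, and no filter on dim probes gave 1564 and 2337. The median of HSD3B genes was -1.97 with normexp and -2.67 when a gene's probes were averaged, and the median of the integrated stress response was 0.25 with normexp. Mt1 was at -0.22 with the mean over its probes. In the 10 settings run, the counts of higher and lower genes otherwise stayed within 1.5 times, and the medians of the 8 main lists otherwise moved by less than the spot error. The cause of these shifts was not tested. Of 179 named genes past 2-fold, 140 stayed so with normexp, 172 with median or spike-in scaling and 171 with the mean over probes. With the submitters' flags, without the significance flag, which was not applied, 158 of the 179 had a value and all 158 stayed past 2-fold. No paired analysis was possible because each group has 1 array. Signal over background limits dim genes, and 1631 of 21200 values are bounds.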
